A study of Homo sapiens with 6 samples.

Results

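IL6ST encodes gp130, the receptor chain shared by nearly all cytokines of the interleukin 6 family. It was examined here in breast cancer cells after knockdown of N6AMT1, a methyltransferase that the study examined as a writer of DNA 6mA. The genes described are IL6ST with 9 partners, which are the ligands IL6, IL11 and LIF, the receptor chains IL6R, LIFR and OSMR, the kinase JAK1, the transcription factor STAT3 and the feedback inhibitor SOCS3. These 10 of the 62438 genes in the deposited table were matched by symbol through their Ensembl identifiers. IL6ST was chosen because its fall was among the clearest in this comparison, so its change is given as a description and carries no test. The 9 partners were listed for their role in the pathway.

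Both groups were human breast cancer cells that carried the label MDA-MB-453 and were harvested 48 h after transfection with 10 nM siRNA. One group received an siRNA against N6AMT1 (si-N6AMT1) and the other a scrambled siRNA (si-CN), with 3 RNA-seq libraries in each. The knockdown was transient, and a single siRNA name is given for each group. The labels call the RNA triplicate and do not say that the libraries came from separate cultures, so p-values measure only the spread between these libraries.

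Library totals ran from 19739247 to 21289740 counts. N6AMT1 itself had 3.08, 3.53 and 2.93 CPM (counts scaled to library size by TMM) in the si-N6AMT1 libraries and 6.93, 6.86 and 6.65 CPM in the si-CN libraries. Every library labelled as a knockdown was thus lower in the targeted gene, with a log2 fold change of -1.10 (SE 0.119). Markers of the cell line went against its label. MDA-MB-453 is known as a luminal line, yet the basal keratins KRT5 and KRT14 had 15009 to 17114 and 2064 to 2621 counts, and VIM had 12269 to 13302. The luminal keratins KRT8 and KRT18 were abundant, GATA3 had 48 to 75 counts, and ESR1 and PGR had at most 15 and 2. The 5 measured of the 6 listed markers of other cell types (PECAM1 was not analysed here) summed to 1605 to 1632 CPM in si-N6AMT1 and 1540 to 1585 CPM in si-CN, with PTPRC at 1 to 3 counts. Of them, KRT5 and KRT14 rose by 0.11 and 0.18 on the log2 scale (adjusted p = 0.000522 and 0.000215 from edgeR's quasi-likelihood test), while VIM and COL1A1 were not called. The luminal keratins KRT8 and KRT18 rose as well, by 0.12 and 0.08 (adjusted p = 0.000126 and 0.0150), and EPCAM, an epithelial adhesion molecule, fell by 0.12 (adjusted p = 0.000794). The part of these shifts in the results below was not tested.

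In this pathway a ligand, its own receptor chain and gp130 come together in a complex. IL6 uses IL6R, LIF uses LIFR, and oncostatin M uses either OSMR or LIFR. JAK kinases bound to gp130 phosphorylate the receptor tails, STAT3 docks there, is phosphorylated and moves to the nucleus. SOCS3, which is itself induced by STAT3, binds gp130 and JAK and ends the signal. In breast epithelium the pathway is known for its part in involution of the mammary gland and, in tumours, for autocrine IL6 signalling.

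IL6ST (ENSG00000134352) lies on the minus strand of chromosome 5, at chr5:55230923-55290850 in GRCh37. Its level was 91.9, 87.3 and 86.8 CPM in the si-N6AMT1 libraries and 136.6, 139.1 and 138.0 CPM in the si-CN libraries. Every si-N6AMT1 library lay far below every si-CN library, with a gap many times wider than the spread within either group. The mean was 88.6 ± 2.81 CPM (SD, n = 3) against 137.9 ± 1.25 CPM (SD, n = 3), a log2 fold change of -0.64 (standard error, SE, 0.0286), which is a change of -35.7%. In bulk RNA, fewer cells that express a gene and less RNA per cell cannot be told apart. IL6ST ranked 16 from the lowest fold change among the 10103 genes with a mean of at least 10 CPM, and 144 among all 17320 genes tested.

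**Figure D1:**
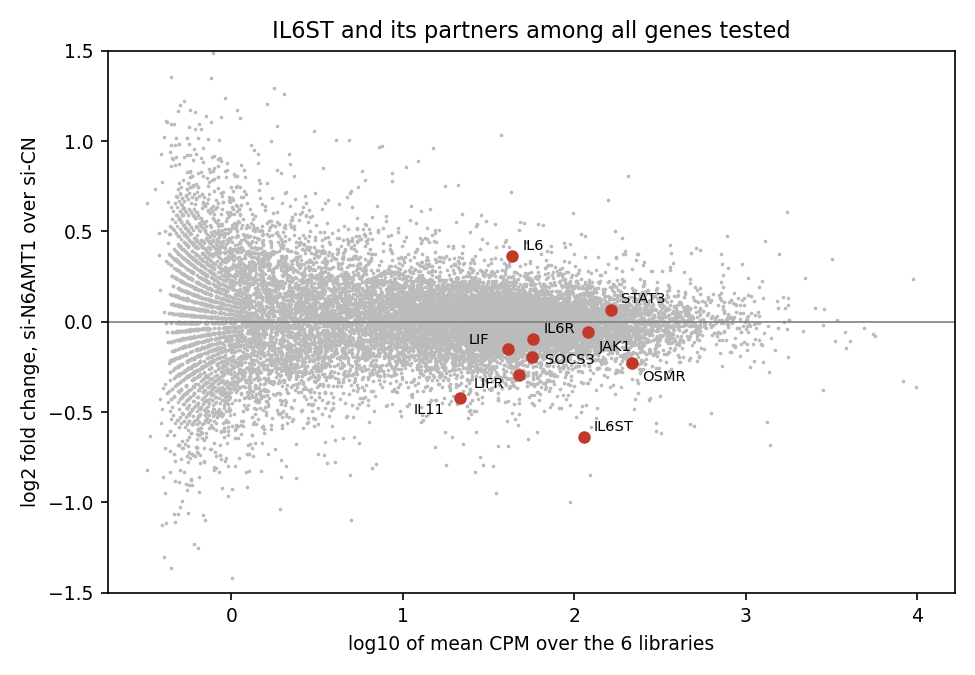
Each grey point is a tested gene, plotted by log10 of its mean CPM over the 6 libraries (x axis) and its log2 fold change in si-N6AMT1 over si-CN (y axis, limited to 1.5 in either direction), and red points mark IL6ST and its 9 partners. IL6ST, at a log2 fold change of -0.64, lies below nearly all genes of similar level, whereas the partners lie between -0.42 and 0.36.

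The 3′ UTR of IL6ST is shown next because of a sequence it repeats. An earlier scan of the same fold changes had picked the 7-base sequences TTCACAT and TCACATA as those of 3′ UTRs that accompanied falls in the knockdown. They were therefore picked on these data, and their presence in a gene that fell is no independent evidence. In the reference transcript of IL6ST (ENST00000381298.7), the 3′ UTR is 5987 bases long, and TTCACAT occurs in it 6 times. In 2 of the 6 places it is followed by A, which makes the 8-base TTCACATA and so also holds TCACATA. Matches were searched on the mRNA strand alone, and a match is a description of the letters in the UTR. The sites are printed 5′ to 3′ in the sense of the mRNA, with 10 bases on each side and the matching bases in capitals. Each name gives the first base of the match, counted from the base after the stop codon. The position is that of the printed window in GRCh37, on the minus strand.
IL6ST 141, chr5:55236753-55236779: gaactgaagtTTCACATgagctatttc
IL6ST 1629, chr5:55235265-55235291: cagaatattgTTCACATtagacttcct
IL6ST 1699, chr5:55235194-55235221: tcaaagttctTTCACATAttatatgatc
IL6ST 2814, chr5:55234080-55234106: gcaaatttcaTTCACATgttctgtgtt
IL6ST 4972, chr5:55231922-55231948: ttaatgtgccTTCACATtgtgattttg
IL6ST 5042, chr5:55231851-55231878: cagtaactccTTCACATAtataccagag

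Such a number of sites was rare. TTCACAT occurred at least once in the 3′ UTR of 17.7% of the 13082 tested protein-coding genes with a 3′ UTR of at least 50 bases, whereas only 3 of them held 6 or more. The other two were PAQR3, with 7 sites, and SLC8A1, with 6, and neither was called (log2 fold changes of 0.02 and -0.07, adjusted p = 0.816 and 0.645 from edgeR's quasi-likelihood test). Longer 3′ UTRs more often held a site. Among the 631 genes with a 3′ UTR of 5000 to 7000 bases, 51.3% held TTCACAT, and IL6ST was the only one with 6 or more. Over all 13082 genes, the median log2 fold change was 0.01 for the 10771 genes without TTCACAT, -0.05 for the 1812 with 1 site, -0.08 for the 380 with 2 sites, -0.13 for the 81 with 3 sites and -0.11 for the 38 with 4 or more. The median UTR length rose alongside, from 1067 bases without a site to 9063 bases with 4 or more. Because TTCACAT was picked on these same fold changes, lower medians in genes with a site were built into that choice. They are given as a description, without a test.

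Among the partners, LIFR and OSMR each held a single TCACATA, and the other 7 genes held neither sequence. At least 1 of these sequences is found in 22.5% of the same 13082 genes. The LIFR site lies near the end of a 3′ UTR of 6927 bases (minus strand of chromosome 5), and the OSMR site lies in a UTR of 2197 bases (plus strand of the same chromosome). They are printed in the same way, to set beside those of IL6ST.
LIFR 6754, chr5:38474927-38474953: tgtaaagcaaTCACATAgcgctatgga
OSMR 785, chr5:38934321-38934347: ggaacgtataTCACATAattccagtca

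N6AMT1, the gene that the siRNA was designed against, holds neither sequence in its 3′ UTR of 4174 bases. TTCACAT occurs once in its transcript, in the coding sequence at base 306, on the minus strand of chromosome 21. In 8.92% of the 13082 genes this sequence lies before the end of the stop codon. The sequence of the siRNA is not given in the sources used here, so its pairing with any of these sites was not tested.
N6AMT1 306, chr21:30254494-30254520: tgtaacaaagTTCACATtcaaccagtt

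**Figure D2:**
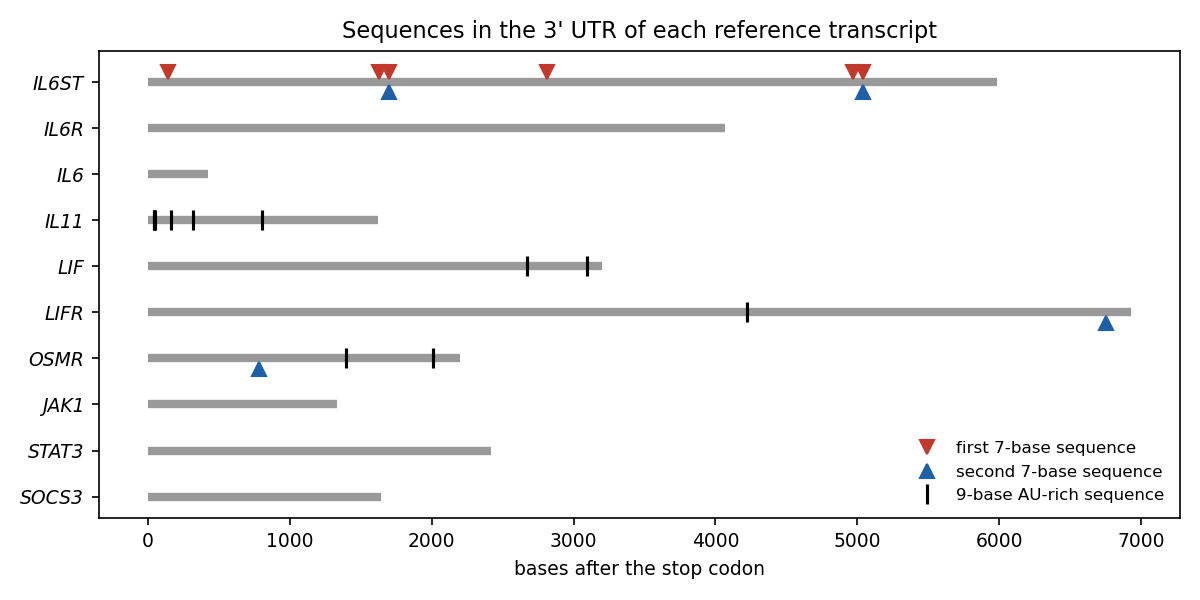
Grey bars show the 3′ UTR of the reference transcript of IL6ST and each partner to scale, in bases after the stop codon (x axis). Red triangles mark TTCACAT, blue triangles TCACATA and black ticks the 9-base AU-rich sequence TTATTTATT, and the 6 red triangles all lie on IL6ST, while 6 of the 11 black ticks lie on IL11.

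Genes that overlap IL6ST or resemble it had few or no counts. The pseudogene IL6STP1 and the 3 genes annotated within IL6ST on the opposite strand had 0 counts in every library, and the divergent transcript IL6ST-DT had 5 to 10. Within 500 kb of IL6ST, 3 other genes passed the expression filter, and none fell. PLPP1 and IL31RA were not called (log2 fold changes of -0.10 and 0.12, adjusted p = 0.394 and 0.476 from edgeR's quasi-likelihood test). SLC38A9, a lysosomal amino acid transporter, had a log2 fold change of 0.21 (adjusted p = 0.0398). It was no longer called without si-N6AMT1 replicate 1 or 3 or si-CN replicate 2 or 3, with adjusted p from 0.115 to 0.144. The call was also lost with DESeq2 (adjusted p = 0.160, and 0.161 on genes with at least 1 TPM) and without the expression filter (adjusted p = 0.0649).

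The 3 genes whose libraries followed those of IL6ST most closely were DDX21, an RNA helicase, ABITRAM and EIF4G2, a translation initiation factor. Likeness was the mean absolute difference, over the 6 libraries, of log2 CPM set relative to the si-CN mean, and it was 0.017, 0.0216 and 0.0259 on the log2 scale, out of 17319 genes compared. Their log2 fold changes were -0.62, -0.65 and -0.68, which follow from their being picked for likeness to IL6ST. In their 3′ UTRs, TTCACAT or TCACATA occurred in 2 places in DDX21 and in 2 in ABITRAM, but in none in EIF4G2. Both sequences were picked on these same fold changes, so their presence in genes picked for a like fall is no independent evidence. At least 1 of them is found in 22.5% of the 13082 genes.

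All 9 partners passed the expression filter. Of them, 5 fell (IL11, LIF, LIFR, OSMR and SOCS3), 1 rose (IL6), and 3 did not pass the test (IL6R, JAK1 and STAT3). Among all 17320 genes, 11.5% were called lower and 9.78% were called higher at an adjusted p under 0.05. The partners' median log2 fold change was -0.15, against 0.00385 for all genes tested. Libraries of the groups did not overlap for 6 partners in the lower direction and 2 in the higher direction, against 18.0% and 16.8% of all genes (34.9% in either direction). The partners were listed with results of these libraries known, and these shares are given without a test.

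**Figure D3:**
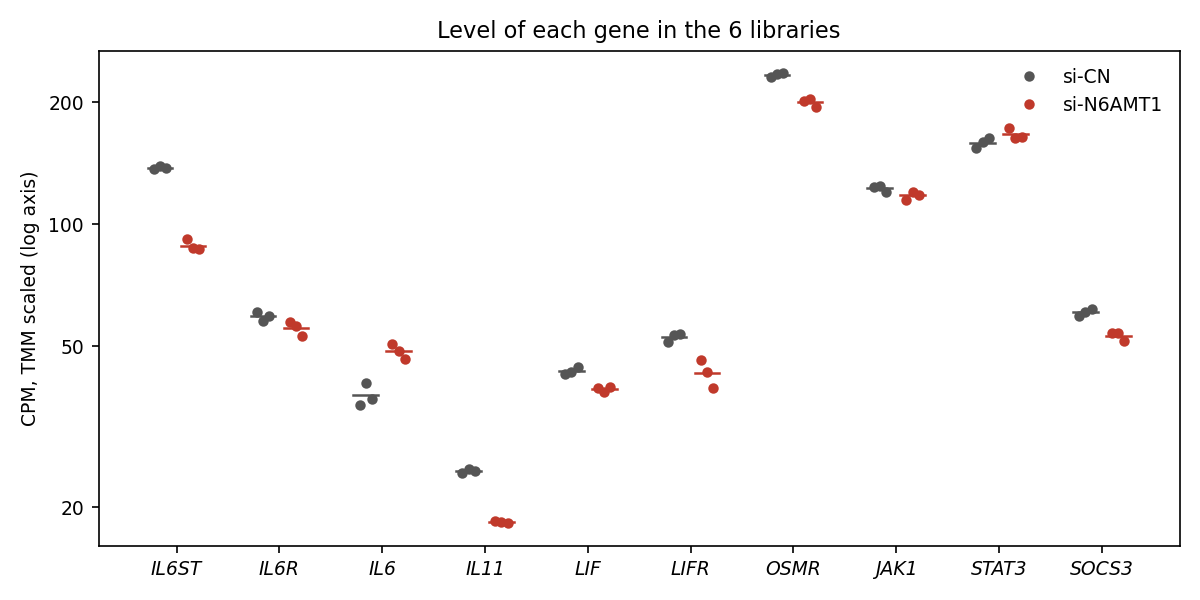
Each point is a library, with CPM scaled by TMM on a log axis (y axis) for IL6ST and its 9 partners (x axis), and horizontal lines mark the mean of the 3 si-CN (grey) and the 3 si-N6AMT1 (red) libraries. The groups are separated for each gene except JAK1, and IL6 is the clearest gene with its red points above the grey ones.

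Of the ligands, IL6 rose while IL11 and LIF fell. IL6, the founding cytokine of the family (ENSG00000136244, plus strand, chr7:22765503-22771621), had 50.7, 48.6 and 46.6 CPM in si-N6AMT1 and 35.9, 40.5 and 37.1 CPM in si-CN libraries. Every si-N6AMT1 library lay above every si-CN library. IL6 rose by 0.36 on the log2 scale (SE 0.0469, adjusted p = 4.32e-06 from edgeR's quasi-likelihood test). Leaving out any single library gave 0.33 to 0.41.

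IL11, which signals through its own receptor chain with gp130 (ENSG00000095752, minus strand, chr19:55875750-55881831), had 18.5, 18.4 and 18.3 CPM in si-N6AMT1 and 24.3, 24.8 and 24.6 CPM in si-CN libraries. The groups were widely separated, and the libraries within each group lay close together. Its log2 fold change of -0.42 (SE 0.0550, adjusted p = 5.14e-06 from edgeR's quasi-likelihood test) was the largest fall among the 9 partners.

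LIF, leukaemia inhibitory factor (ENSG00000128342, minus strand, chr22:30636442-30642748), had 39.4, 38.6 and 39.6 CPM in si-N6AMT1 and 42.6, 43.2 and 44.4 CPM in si-CN libraries. The groups did not overlap, although the gap was narrower than for IL11. LIF had a log2 fold change of -0.15 (SE 0.0402, adjusted p = 0.00992 from edgeR's quasi-likelihood test). The call was lost with DESeq2 (adjusted p = 0.0822) and without si-CN replicate 3 (adjusted p = 0.0595), with the same direction.

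Many cytokine mRNAs are known to carry AU-rich elements in their 3′ UTRs, which shorten the life of the mRNA, and these were counted in the ligands. The 9-base element TTATTTATT occurred 6 times in the 1625 bases of the IL11 3′ UTR, 2 times in that of LIF, and not in the 425 bases of that of IL6, where the shorter ATTTA was found 6 times. Of the 13082 genes, 9.82% held TTATTTATT at least once and 0.145% held it 6 times or more. At the start of the IL11 3′ UTR, matches overlap each other, and the windows at bases 42, 165 and 318 show the repeat (minus strand of chromosome 19).
IL11 42, chr19:55877315-55877343: aagccagatcTTATTTATTtatttatttc
IL11 165, chr19:55877192-55877220: ttatttatacTTATTTATTtcaggagcag
IL11 318, chr19:55877039-55877067: ggaacatataTTATTTATTtaagcaatta

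Of the receptor chains that pair with gp130, LIFR and OSMR fell and IL6R did not pass the test. OSMR (ENSG00000145623), the oncostatin M receptor on the plus strand at chr5:38845960-38945698, had 201.1, 204.4 and 194.8 CPM in si-N6AMT1 and 231.1, 235.1 and 236.1 CPM in si-CN libraries. No si-N6AMT1 library reached the lowest si-CN library. OSMR thus had a log2 fold change of -0.23 (SE 0.0244, adjusted p = 3.28e-07 from edgeR's quasi-likelihood test). RICTOR overlaps OSMR on the opposite strand with 2217 to 2514 counts, and its log2 fold change was -0.01 (adjusted p = 0.880).

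LIFR (ENSG00000113594), the LIF receptor on the minus strand at chr5:38474770-38608456, had 46.3, 43.2 and 39.4 CPM in si-N6AMT1 and 51.1, 53.4 and 53.6 CPM in si-CN libraries. The groups did not overlap, with a wide spread within si-N6AMT1. For LIFR the log2 fold change came to -0.30 (SE 0.0471, adjusted p = 6.25e-05 from edgeR's quasi-likelihood test). Leaving out any single library gave -0.35 to -0.24. The antisense gene LIFR-AS1 had 10 to 22 counts, beside at least 808 for LIFR.

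IL6R, the chain that binds IL6 (ENSG00000160712, plus strand, chr1:154377669-154441926), had 57.5, 56.0 and 53.0 CPM in si-N6AMT1 and 60.8, 57.6 and 59.5 CPM in si-CN libraries. The highest si-N6AMT1 library nearly met the lowest si-CN library. This gave a log2 fold change of -0.10 with a 95% interval, unadjusted, from -0.18 to -0.02, and the adjusted p was 0.0831 from edgeR's quasi-likelihood test. Without si-N6AMT1 replicate 1 it passed the threshold, with a log2 fold change of -0.12 (adjusted p = 0.0482).

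The other receptor chains of the family, IL11RA, CNTFR, IL27RA and IL31RA, gave no call from edgeR's quasi-likelihood test or from DESeq2. CNTFR had 0 to 2 counts and was not tested, and 0 of the other 3 had an unadjusted p under 0.05. IL11RA, the partner of IL11, had only 80 to 101 counts, and its log2 fold change of 0.05 had a standard error of 0.132.

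Neither JAK1 nor STAT3, the mediators inside the cell, passed the test. JAK1, the main kinase bound to gp130 (ENSG00000162434, minus strand, chr1:65298906-65533437), had 115.0, 120.5 and 118.3 CPM in si-N6AMT1 and 123.4, 124.7 and 120.2 CPM in si-CN libraries. The groups overlapped. Its log2 fold change was -0.06 with an unadjusted 95% interval from -0.11 to 0.00059 (adjusted p = 0.162 from edgeR's quasi-likelihood test). RAVER2, which overlaps JAK1 on the opposite strand, had 722 to 793 counts.

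STAT3, the transcription factor (ENSG00000168610, minus strand, chr17:40465342-40540558), had 172.5, 163.8 and 164.3 CPM in si-N6AMT1 and 154.2, 159.7 and 163.5 CPM in si-CN libraries. Each si-N6AMT1 library lay above each si-CN library, but the nearest libraries were almost level. STAT3 had a log2 fold change of 0.07 with an unadjusted 95% interval from 0.01 to 0.13, and it did not pass the test (adjusted p = 0.0938 from edgeR's quasi-likelihood test). These are mRNA levels. Phosphorylation of STAT3, through which the pathway signals, was not measured.

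SOCS3, the feedback inhibitor (ENSG00000184557, minus strand, chr17:76352859-76356158), had 53.8, 53.9 and 51.4 CPM in si-N6AMT1 and 59.5, 60.9 and 61.8 CPM in si-CN libraries. The groups were clearly apart. SOCS3 fell, by a log2 fold change of -0.20 (SE 0.0361, adjusted p = 0.000322 from edgeR's quasi-likelihood test). Leaving out any single library gave -0.21 to -0.17.

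**Figure D4:**
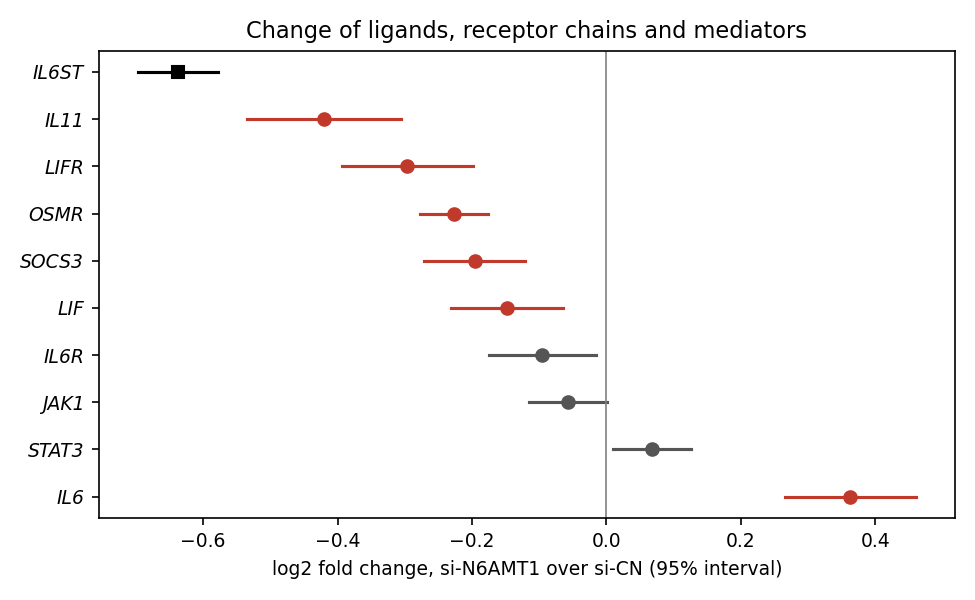
Log2 fold change in si-N6AMT1 over si-CN (x axis) of IL6ST and its 9 partners (y axis), with bars for the unadjusted 95% interval. Red marks partners past an adjusted p of 0.05, grey those that did not pass, and the black square is IL6ST, which was chosen by this value; IL6, at 0.36, is the only red point on the right.

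To compare levels between genes, counts were divided by the mean length of each gene's transcripts and scaled to the same sum in each library (estimated TPM). In si-CN libraries, OSMR was the highest of the 10 genes at 188.5 ± 3.67 TPM (SD, n = 3) and LIFR the lowest at 25.8 ± 0.877 TPM. The order between them was STAT3 (66.0 TPM), SOCS3 (57.2 TPM), IL6R (48.9 TPM), IL6 (47.6 TPM), JAK1 (42.5 TPM), IL6ST (37.5 TPM), LIF (28.3 TPM) and IL11 (27.2 TPM). The libraries of IL6R and IL6 overlapped, as did those of LIF and IL11, so these neighbours did not differ beyond their spread. In si-N6AMT1 libraries IL6ST stood at 24.1 ± 0.912 TPM and overlapped with LIF at 25.6 ± 0.450 TPM. The values depended on the transcript length used. With the longest and the canonical transcript in place of the mean, si-CN libraries had 119.6 and 96.8 TPM for OSMR and 14.1 and 11.4 TPM for LIFR, which stayed highest and lowest. IL6R moved from place 4 to 9 with either length (29.0 and 23.5 TPM), and IL6 from place 5 to 6 and 2 (32.2 and 76.7 TPM). IL6ST moved from place 7 to 5 and 6 (43.1 and 34.9 TPM), so the order between the ends is that of the mean length only.

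The other genes of the pathway were read from 8 lists written from general knowledge, 71 genes in all. Of the 67 that passed the expression filter, 14 fell, 8 rose and 45 did not pass the test, with a median log2 fold change of 0.00127, which is close to the 0.00385 of all genes tested. Among all genes 11.5% were called lower and 9.78% higher.

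Of the 8 other ligands, OSM, IL27 and IL31 had at most 1 count per library and were not tested. The remaining 5 gave no call from edgeR's quasi-likelihood test or from DESeq2, and 1 of them had an unadjusted p under 0.05. This was CLCF1, a gp130 ligand, with a log2 fold change of 0.20 and an adjusted p of 0.0583 (it is named after its value was seen). Without si-N6AMT1 replicate 3, 1 of the 5 was called.

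Among the 4 genes of receptor shedding, ADAM10, a protease that can release IL6R from the cell surface, had a log2 fold change of -0.21 (SE 0.0267, adjusted p = 4.32e-06 from edgeR's quasi-likelihood test). Its level was 159.3 ± 3.36 CPM against 184.0 ± 5.20 CPM (SD, n = 3). ADAM17, the main protease for this step, had a log2 fold change of 0.00 with a standard error of 0.0268 and was not called.

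Of the 9 other JAK kinases and STAT factors, 2 fell and 2 rose. JAK3, a kinase known mainly from lymphocytes, had 36 to 78 counts and rose by 0.62 on the log2 scale (SE 0.172, adjusted p = 0.0117 from edgeR's quasi-likelihood test). The call was lost without si-N6AMT1 replicate 2 (adjusted p = 0.0624) or si-CN replicate 1 (adjusted p = 0.0601). STAT5B had a log2 fold change of -0.09 (adjusted p = 0.0343) and STAT6, the factor activated by IL4, of 0.12 (adjusted p = 0.0183). The 4 calls became 1 without si-N6AMT1 replicate 2 or si-CN replicate 2, and 2 without si-N6AMT1 replicate 3 or si-CN replicate 1 or 3. JAK2 and TYK2, the other kinases that bind gp130, were not called, with log2 fold changes of -0.06 and 0.00.

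In the SHP2 and RAS arm, 1 of 7 genes fell and 1 rose. PTPN11, which encodes the phosphatase SHP2 that docks on gp130, had 235.6 ± 9.66 CPM against 258.1 ± 6.69 CPM (SD, n = 3), a log2 fold change of -0.13 (SE 0.0279, adjusted p = 0.00121 from edgeR's quasi-likelihood test). SHC1, an adaptor to RAS, rose by 0.09 on the log2 scale (SE 0.0226, adjusted p = 0.00411).

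Of the 14 other brakes on JAK and STAT signalling, 3 fell and 11 did not pass the test. With library totals in place of TMM, 6 of the 14 were called. SOCS2, a relative of SOCS3 induced by STAT5, had 30.9 ± 0.615 CPM against 38.4 ± 2.08 CPM (SD, n = 3), a log2 fold change of -0.31 (SE 0.0474, adjusted p = 3.57e-05 from edgeR's quasi-likelihood test). SOCS4 and SOCS7 fell by 0.17 and 0.17 on the log2 scale. SOCS1, at 23 to 36 counts, was not called.

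Of the 5 STAT3 cofactors, 2 fell. HDAC1, a histone deacetylase, had a log2 fold change of -0.08 (SE 0.0252, adjusted p = 0.0205 from edgeR's quasi-likelihood test), and its call was lost without si-N6AMT1 replicate 1 or 2 or si-CN replicate 2 or 3 (adjusted p from 0.0562 to 0.0944). NCOA1, a coactivator, had a log2 fold change of -0.22 (adjusted p = 0.0223). Both calls were lost without si-N6AMT1 replicate 2 or si-CN replicate 2 or 3, and 1 call was made without si-N6AMT1 replicate 3.

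Genes known as targets of STAT3 went both ways. Of 20, 5 fell, 5 rose and 10 did not pass the test, and their median log2 fold change was 0.04. CCND1, which encodes cyclin D1 and is also under the control of many other pathways, had 131.4, 128.4 and 130.6 CPM in si-N6AMT1 and 193.7, 196.5 and 190.1 CPM in si-CN libraries. Its log2 fold change of -0.57 (SE 0.0252, adjusted p = 1.91e-13 from edgeR's quasi-likelihood test) was the largest fall in the list. TTCACAT, which was picked on these same fold changes, is held at least once by 17.7% of the 13082 genes. The 3′ UTR of CCND1 holds it in 2 places (plus strand of chromosome 11), which are printed to set beside those of IL6ST.
CCND1 1998, chr11:69468038-69468064: tttggaaataTTCACATcgcttctgtg
CCND1 2022, chr11:69468062-69468088: gtgtatctctTTCACATtgtttgctgc

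FOS, an immediate early transcription factor, had 222.6, 225.0 and 223.5 CPM in si-N6AMT1 and 166.7, 174.3 and 176.0 CPM in si-CN libraries. It had the largest rise among these targets, at 0.38 on the log2 scale (SE 0.0251, adjusted p = 1.79e-10 from edgeR's quasi-likelihood test). IRF1, an interferon-responsive factor, and TIMP1, an inhibitor of matrix proteases, rose by 0.27 and 0.26. The other genes that fell were PIM1, BIRC5, HIF1A and ICAM1, with log2 fold changes from -0.16 to -0.10. MCL1, a survival factor with the highest CPM of the list (not corrected for length), was not called (log2 fold change -0.01).

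**Figure D5:**
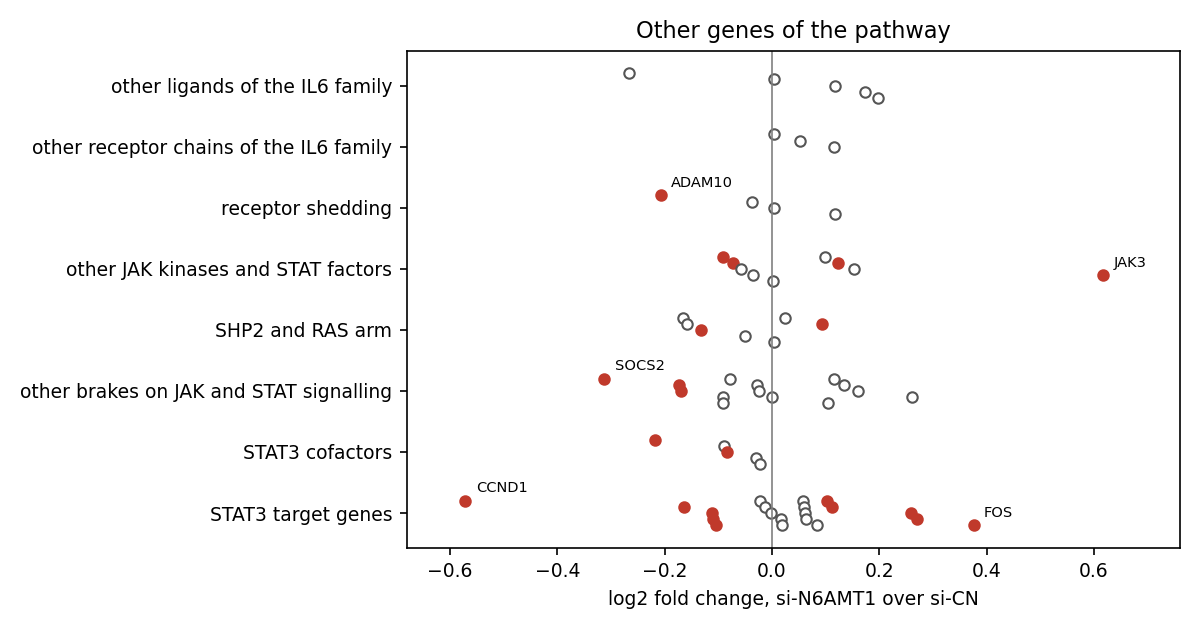
Each point is a tested gene of 1 of the 8 pathway lists (y axis), at its log2 fold change in si-N6AMT1 over si-CN (x axis), filled red where the adjusted p was under 0.05 and open otherwise. CCND1 at -0.57 and JAK3 at 0.62 are the ends of the range, and points of the STAT3 targets lie on both sides of 0.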

How the data were processed

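RNA-seq was made from 3 si-N6AMT1 and 3 si-CN libraries. Reads were trimmed by the authors (Trim Galore v0.6.5) and quantified against GENCODE v33 transcripts (hg19) with kallisto v0.46.0. The deposited values are estimated counts per gene (expected counts) in whole numbers, without normalization. The strand option of kallisto is not given in the sources used here, so reads of genes that overlap on opposite strands may be shared.

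Low genes were dropped by filterByExpr (minimum count 10), libraries were scaled by TMM, and all 6 libraries were fitted by edgeR's quasi-likelihood test (edgeR v4.0.16, R v4.3.3) with no covariate. P-values were adjusted by Benjamini-Hochberg over all 17320 genes tested, and calls were made under 0.05. Each SE is the size of the log2 fold change over the square root of its F statistic. The procedure was tested on simulated counts. Symbols were found for 62149 identifiers. Positions and sequences came from GENCODE v44 on GRCh37, the build the authors name, and each gene's canonical transcript. Libraries of the same group were not identical copies of each other (chi-square per degree of freedom 1.35 to 1.69). Their spread was small, with a biological coefficient of variation of 1.85%, so shifts of a few percent could be called. Such values do not show whether the libraries came from separate cultures.

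The genes named are IL6ST and its partners, N6AMT1, the gene with the smallest adjusted p in each direction of each list, tested genes within 500 kb of IL6ST, overlapping genes, antisense genes and pseudogenes, and the 3 genes closest to IL6ST. Members and lists were chosen with earlier results of these data known. Some genes counted in the lists are not reported singly here. Other genes of a list are named beside its count after their values were seen. Alternatives were RLE size factors, library totals, no filter, DESeq2 v1.42.0 on the same genes and on genes with at least 1 estimated TPM, the replicate number as a block, each library left out in turn, and other transcript lengths. The canonical length was chosen after seeing the data.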

Additional observations from a re-analysis of the deposited data

How the results depend on the processing

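The log2 fold change of IL6ST ran from -0.66 to -0.62 over the fits without a single library and between -0.64 and -0.63 under the other alternatives. Of its partners, 4 to 6 were called lower and 1 was called higher when a library was left out. DESeq2 called 1275 genes lower and 955 higher on the same genes, and 1250 and 959 on genes with at least 1 TPM. Under either DESeq2 fit the other JAK kinases and STAT factors gave 1 call and the STAT3 cofactors 0. With library totals in place of TMM, 1 of the other ligands, 2 genes of receptor shedding, 6 of the other brakes and 1 of the STAT3 cofactors were called. Leaving out a library gave 0 to 1 calls for the other ligands, 1 to 3 for the other JAK kinases and STAT factors, and 0 to 2 for the STAT3 cofactors. JAK3 had no adjusted p from DESeq2, which gives no value there. The cause of these differences was not tested. IL6ST in si-CN had 43.1 TPM by the longest and 34.9 TPM by the canonical transcript.

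The replicate numbers gave no sign of pairing, although so few libraries with so little spread cannot settle whether same-numbered libraries were handled together. Deviations of same-numbered libraries from their group means correlated at -0.119, -0.0888 and 0.00647 over 10103 genes, and 0 of 6 libraries correlated best with their own number. With the replicate block, 1804 genes were called lower and 1522 higher, and 2 of the other JAK kinases and STAT factors were called. At about 20 counts per CPM, genes such as IL11RA or JAK3 carry wide errors.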
